A study of Mus musculus with 22 samples.

Results

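The difference between Socs3 cKO and wild-type (WT) mouse ear was measured at 2 and at 8 weeks after birth, and the quantity described here is how far that difference changed between the ages. For each gene the difference at 2 weeks (cKO minus WT) was subtracted from the difference at 8 weeks, on the scale log2(FPKM + 1), where FPKM is the abundance of a transcript per kilobase of its length, relative to all mapped fragments of its library. A positive interaction thus means that a gene stood higher in cKO relative to WT at 8 weeks than at 2 weeks, and a negative interaction the reverse. The same number is the change from 2 to 8 weeks in cKO minus the change from 2 to 8 weeks in WT. Of the 22 libraries of the series, the 15 whose titles name these groups were used: 4 of WT at 2 weeks, 3 of WT at 8 weeks, 4 labelled cKO at 2 weeks and 4 labelled cKO at 8 weeks. All mice are given as C57BL/6. In those labelled cKO, Socs3 was to be deleted under keratin 5, a gene of basal keratinocytes and of the outer layer of the hair follicle, so that vessels, fibroblasts, muscle and blood cells of the ear would keep it. The labels call the source keratinocytes, but RNA came from ear specimens, and genes of dermis, muscle, cartilage, nerve and blood were all detected. Whether the libraries within a group are of different mice is not labelled. The p-values therefore rest on the spread between these libraries alone, which may be technical.

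SOCS3 is made in response to cytokines of the IL-6 and IL-20 families and blocks the JAK kinases that activate the transcription factor STAT3, which closes a feedback loop. In epidermis STAT3 serves wound closure, the growth phase of hair and the release of antimicrobial peptides. Young mouse skin passes through synchronous rounds of hair growth and rest, so the abundance of hair transcripts in WT skin depends strongly on age. A comparison of genotypes at a single age does not show whether a difference persists, and the interaction is the test of that.

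The 3 WT libraries of 8 weeks stood apart from the other 12 in measures taken per library. Of these, the median FPKM and the ribosomal share use genes that are also tested in the contrast, so they are not independent of it. Olfactory and vomeronasal receptor genes, which serve the nose, were above 0 for 50.4% to 72.9% of 1200 genes there and for 3.25% to 5.83% elsewhere. Tested genes had a median FPKM of 2.41 to 4.70 in these libraries, against 9.43 to 9.65 for WT of 2 weeks and 5.22 to 9.26 for cKO. The share of ribosomal protein genes in the summed FPKM was 31.6% to 41.5% there, against 11.5% to 11.8% for WT of 2 weeks and 16.3% to 29.0% for cKO. More than 10 FPKM of the Y-linked Eif2s3y was found in 1 of 4 WT libraries of 2 weeks, 0 of 3 of 8 weeks and, at each age, 2 of 4 labelled cKO. Since all 3 WT libraries of 8 weeks share these values, they and the age of WT cannot be told apart, and no interaction can be computed without them.

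Of 21110 genes, 13908 reached 1 FPKM in at least 3 of the 15 libraries and were tested with limma, with genes called at a Benjamini-Hochberg adjusted p under 0.05. As deposited, the interaction was positive for 7577 genes (54.5%) and negative for 842 (6.05%), with a median over all tested genes of 0.98. After median-of-ratios scaling, which centres the libraries on their typical gene, 3226 (23.2%) were positive and 2920 (21%) negative, and the median was 0.04. Directions are therefore given only for genes called in the same direction under both scalings. There were 4068 of them (29.2%), 3226 positive (23.2%) and 842 negative (6.05%), and every count below refers to these unless a scaling is named. The positive count equals that after scaling and the negative count that as deposited. Calling under both is thus the stricter scaling in each direction and adds no further support. The imbalance follows from that rule, since after scaling alone the shares were 23.2% and 21%. The shares of 23.2% and 6.05% are the background for every list below. Without WT replicate 1 of 8 weeks the negative count was 527. Where the order or overlap of single libraries is described for a gene, it is that of the deposited values, and for some genes it differs after scaling.

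The interaction added mainly the change with age in WT. After scaling, the median absolute change from 2 to 8 weeks was 0.73 in WT and 0.21 in the libraries labelled cKO. In WT that change was called for 7792 genes (56%) and in cKO for 122 (0.877%). Of the 3226 positive genes, the change in WT was larger in size than the change in cKO for 3093 (95.9%), and of the 842 negative genes for 810 (96.2%), against 80.4% of all tested genes. Seen as differences between genotypes, the scaled median absolute difference was 0.545 at 2 weeks and 0.433 at 8 weeks. As deposited it was 0.563 and 0.87, so which age had the larger difference depended on the scaling.

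**Figure D1:**
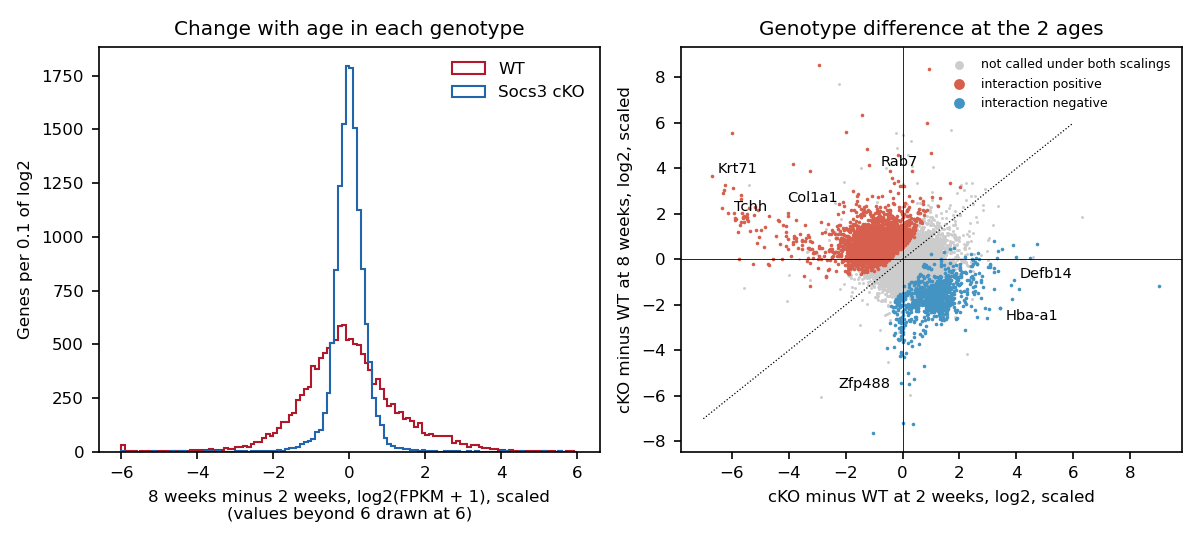
Left, number of tested genes by their change from 2 to 8 weeks in WT and in Socs3 cKO libraries (log2(FPKM + 1) after median-of-ratios scaling); the WT curve is the wider, with a median absolute change of 0.73 against 0.21. Right, the genotype difference of each tested gene at 2 weeks (horizontal) and at 8 weeks (vertical), coloured where the interaction was called under both scalings, with a dotted line where the differences are equal; hair genes such as Krt71 lie at the upper left and Hba-a1 at the lower right.

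Socs3, the targeted gene, was read first as a check of the labels. At 2 weeks WT held 10.2, 10.3, 10.3 and 9.71 FPKM of it, and the libraries labelled cKO held 1.25, 9.32, 12.6 and 3.51 FPKM. At 8 weeks WT held 0.604, 1.36 and 0.93 FPKM, and the libraries labelled cKO 1.6, 5.3, 8.47 and 6.84 FPKM. The groups overlapped at 2 weeks. As deposited, every library labelled cKO lay above every WT library at 8 weeks, the reverse of the order that a deletion would give. The values cover all cells of the specimen, of which only keratin 5 cells were to lose the gene, so they cannot settle the label. All groups below are therefore named by their label. After scaling the groups overlapped at 8 weeks too, and the difference of 0.95 was not called (limma adjusted p = 0.142). The interaction of Socs3 was 2.47 (SE 0.70) as deposited and 1.63 (SE 0.63) after scaling (limma adjusted p = 0.00726 and 0.0469). The scaled change from 2 to 8 weeks was −1.75 in WT (adjusted p = 0.00493) and −0.12 in cKO (adjusted p = 0.944). In bulk tissue, fewer cells of a type and less RNA per cell cannot be told apart, for this gene and for those that follow. The scaled call was lost in 11 of the 15 fits that left out 1 library each (values 1.22 to 2.01, adjusted p 0.0137 to 0.118), while the deposited call was kept in all 15 (1.98 to 2.86).

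**Figure D2:**
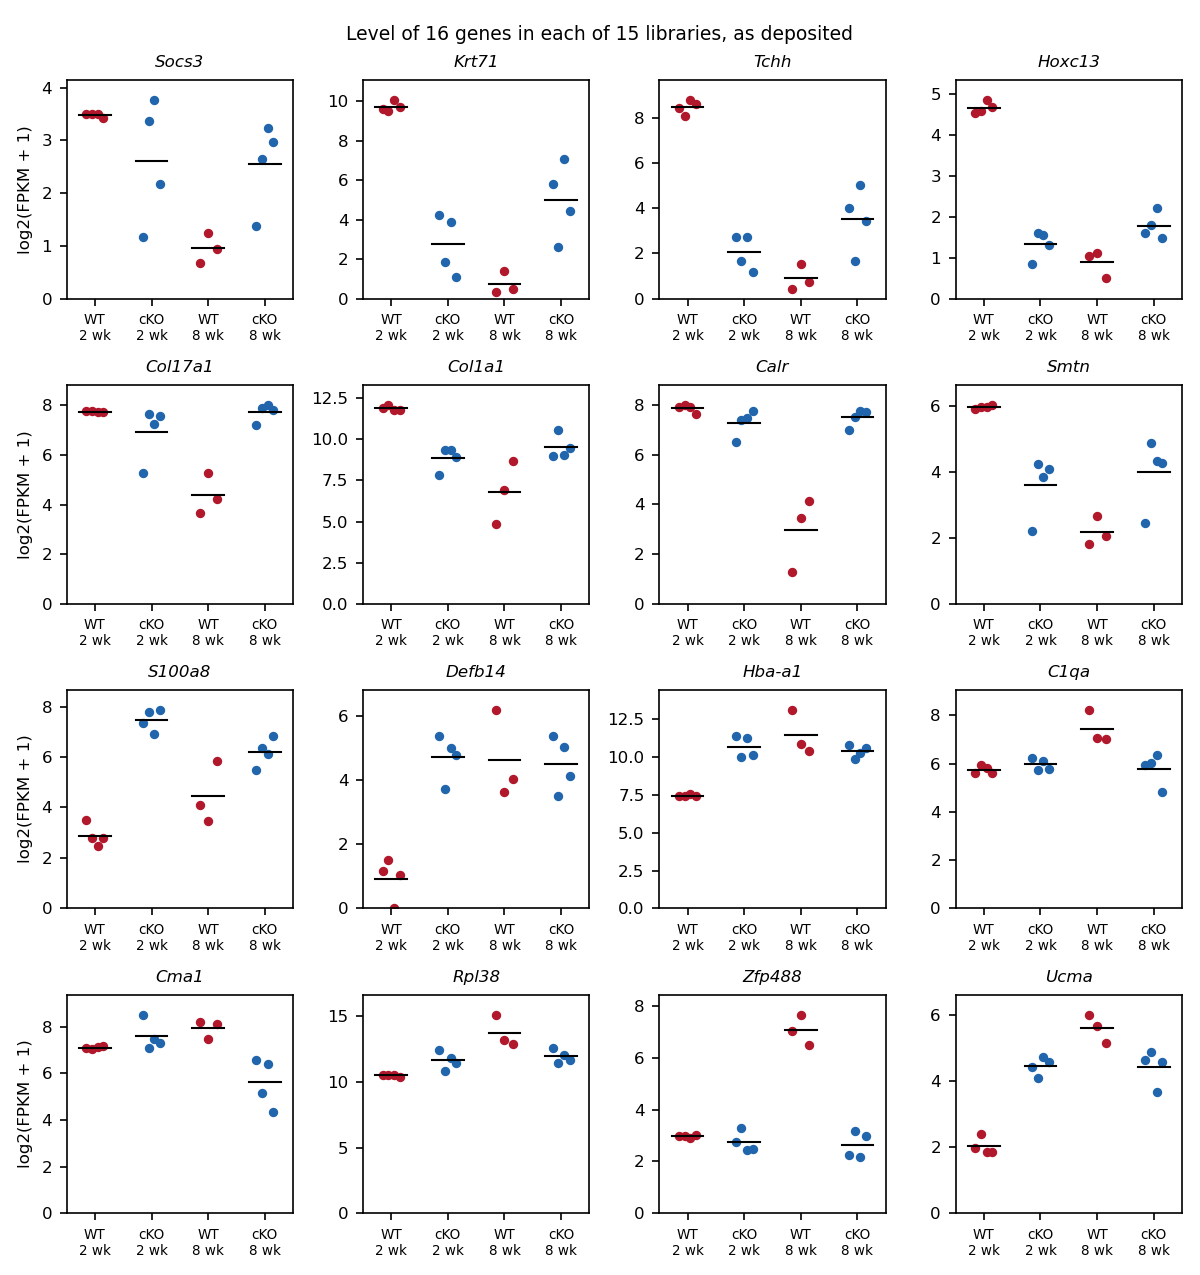
Level of 16 genes on the log2(FPKM + 1) scale, as deposited, with a point for each of the 15 libraries and a line at the group mean. In the top rows WT libraries are high at 2 weeks and low at 8 weeks, and in the lower rows the WT mean is higher at 8 weeks. The means labelled cKO differ less between the ages, except for Cma1, where the age change was −1.97 in cKO and 0.82 in WT.

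Genes of the growing hair had the largest positive interactions. All but 1 of 14 hair shaft keratins (13 positive, 0 negative), 11 of 12 genes of the inner root sheath, the sleeve that moulds the shaft, and 45 of 46 keratin-associated proteins, which cross-link shaft keratins, were positive, against 23.2% of all tested genes. Their median scaled interactions were 7.22, 6.06 and 4.91, beside 0.04 for all tested genes. The summed level of the hair shaft keratins was 777 to 1262 FPKM in WT and 13.4 to 30.9 FPKM in cKO at 2 weeks, and 4.41 to 7.93 FPKM in WT and 4.92 to 178 FPKM in cKO at 8 weeks. The 1 hair shaft keratin not called was Krt84 (0.81 after scaling) and in the other lists it was Gata3 (0.74) and Krtap3-2 (0.90). Members of these families are similar in sequence, and how the authors' quantification shared reads between them is not known.

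The gene with the largest interaction was Krt71, an inner root sheath keratin. At 2 weeks it stood at 784, 729.6, 1083 and 841 FPKM in WT, and the cKO values were 18.2, 2.69, 13.9 and 1.16 FPKM. At 8 weeks the values were 0.279, 1.69 and 0.41 FPKM in WT versus 54.5, 5.21, 133 and 20.9 FPKM in cKO. Every cKO library lay below every WT library at 2 weeks and above every WT library at 8 weeks, so the order of the genotypes turned over. Its interaction was 11.17 (SE 1.16) as deposited and 10.38 (SE 1.24) after scaling (limma adjusted p = 1e-05 and 3.63e-05), made of a scaled age change of −8.3 in WT and 2.09 in cKO, of which the latter was not called (adjusted p = 0.327). Krt25, its partner keratin in the sheath, had a scaled interaction of 9.09.

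Krtap8-1, a shaft protein rich in glycine and tyrosine, followed the same course with a wide spread at 8 weeks. WT libraries of 2 weeks held 644, 762, 1001 and 728 FPKM and those labelled cKO 40.3, 2.26, 19.7 and 0.58 FPKM. By 8 weeks WT held 0.978, 3.99 and 0.98 FPKM and cKO 57.7, 1.12, 201 and 44.3 FPKM. The cKO libraries of 8 weeks ranged from the WT level to far above it, so the groups overlapped at that age only. The interaction was 10.17 (SE 1.67) as deposited and 9.21 (SE 1.72) after scaling (limma adjusted p = 0.000302 and 0.00132).

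Krt71 and Krtap8-1 stand for 2 families that moved together, and their promoters are shown because both hold a TATA box, the element TATAAA on which many strongly induced structural genes rely. The sequences run 5′ to 3′ over 300 bases around the annotated start, most of them before it, are taken from RefSeq on GRCm38.p6 (the expression files use mm9 and carry no coordinates), and have the TATAAA match in capitals. Krt71 is on the minus strand at chr15:101743048-101743347, and Krtap8-1 on the minus strand at chr16:89487903-89488202.
Krt71: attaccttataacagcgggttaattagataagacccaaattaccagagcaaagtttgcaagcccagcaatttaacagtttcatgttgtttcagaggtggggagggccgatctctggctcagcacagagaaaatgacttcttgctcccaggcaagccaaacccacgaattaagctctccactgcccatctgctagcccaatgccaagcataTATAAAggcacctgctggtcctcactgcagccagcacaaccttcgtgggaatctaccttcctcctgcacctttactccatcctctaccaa
Krtap8-1: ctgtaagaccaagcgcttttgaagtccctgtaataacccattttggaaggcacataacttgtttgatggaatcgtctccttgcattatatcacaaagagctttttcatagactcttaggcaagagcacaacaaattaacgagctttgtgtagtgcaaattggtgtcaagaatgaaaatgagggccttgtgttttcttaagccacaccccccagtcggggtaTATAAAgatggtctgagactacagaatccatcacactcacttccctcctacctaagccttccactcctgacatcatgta
The match begins 40 bases before the start of Krt71 and 29 bases before that of Krtap8-1. TATAAA, searched on both strands of the same 300 bases, was found in 31 of 36 keratin-associated protein promoters (86.1%), 8 of 11 of the inner root sheath (72.7%) and 6 of 9 of the hair shaft keratins (66.7%) that the table holds, and in 15.7% of all 27025 promoters. It was 1 of 10 motifs searched, the others, with the share of all promoters that hold them, being CCGGAAG (9.93%), CTTTGA (18.2%), CTTTCC (29.3%), TTTCCG (10%), CTTCC (73.9%), GATAAG (8.58%), TAATTA (6.12%), TTTATT (22%) and CCAAT (41.1%). Read on the other strand, CTTCC lies within CCGGAAG, and matches of CTTTCC can overlap those of TTTCCG. A match describes the letters only.

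Structural genes of the sheath and shaft beyond the keratins went the same way. Trichohyalin (Tchh), which hardens the inner root sheath, was at 342, 264, 438 and 388 FPKM in WT versus 5.61, 2.15, 5.58 and 1.27 FPKM in cKO at 2 weeks, and at 0.359, 1.88 and 0.68 and 14.8, 2.14, 31.5 and 9.65 FPKM at 8 weeks. As deposited, its groups did not overlap at either age and changed order, while after scaling they overlapped at 8 weeks. The interaction of Tchh was 9.0 (SE 0.81) as deposited and 8.17 (SE 0.86) after scaling (limma adjusted p = 2.99e-06 and 1.11e-05). Padi3, an enzyme that modifies trichohyalin, was at 45.4, 45.6, 61.4 and 49.3 FPKM in WT of 2 weeks and between 0.057 and 0.395 FPKM in those of cKO. At 8 weeks it was at or below 0.155 FPKM in WT and at 0.531, 0.293, 4.28 and 0.786 FPKM in cKO, where 1 library lay well above the others. The hair keratins Krt83 and Krt81 had scaled interactions of 7.71 and 7.64, and the shaft genes Krtap7-1, Vsig8 and S100a3 of 9.51, 5.41 and 5.04.

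Regulators of the follicle shared the direction at lower levels. Of 16 tested hair cycle signals 11 were positive and 0 negative, with a scaled median of 1.66. Hoxc13, a homeobox factor that switches on hair keratins, was at 22.1, 22.9, 28 and 24.6 FPKM in WT versus 0.813, 2.03, 1.92 and 1.49 FPKM in cKO at 2 weeks. At 8 weeks it was at 1.07, 1.17 and 0.428 FPKM in WT versus 2.02, 2.47, 3.64 and 1.78 FPKM in cKO, a narrow order but without overlap as deposited. After scaling the groups overlapped and the difference of 0.31 was not called (limma adjusted p = 0.279). Its interaction was 4.21 (SE 0.33) as deposited and 3.41 (SE 0.28) after scaling (limma adjusted p = 1.02e-06 and 8.21e-07), and that of Dlx3, another homeobox factor of the follicle, was 4.48 (SE 0.51) as deposited and 3.5 (SE 0.43) after scaling (limma adjusted p = 1.98e-05 and 4.46e-05). Also positive were Foxn1 (3.03 after scaling), which drives differentiation of the shaft, the Hedgehog target Gli1 (2.63) and the ligand Shh (0.78), the Wnt ligands Wnt10a (1.84) and Wnt10b (1.66), and Lef1 (1.65), which acts with β-catenin in the hair matrix. The Hedgehog receptor Ptch1 (1.03), Bmp4 (1.06) and Edar (−0.10) were not called. In the stem cell and outer root sheath list 8 of 11 were positive. Krt75, a keratin of the companion layer, had a scaled interaction of 4.92 and Lgr5, a receptor of cycling follicle stem cells, of 1.49, while the stem cell markers Krt15 (−0.10) and Cd34 (0.02) were not called.

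In interfollicular epidermis the layers differed. Basal genes were positive in 8 of 13 (0 negative), among them the hemidesmosome parts Itgb4 and Col17a1, which anchor basal cells to the basement membrane. Col17a1 was at 217, 217, 214 and 210.4 FPKM in WT versus 38.1, 199, 150.3 and 188 FPKM in cKO at 2 weeks, and at 11.8, 38 and 17.7 FPKM in WT versus 149, 240.3, 260.0 and 224 FPKM in cKO at 8 weeks. The WT libraries lay above all of those labelled cKO at 2 weeks, where 1 cKO library was far lower than the rest, and below all of them at 8 weeks. Its interaction was 4.17 (SE 0.66) as deposited and 2.94 (SE 0.54) after scaling (limma adjusted p = 0.00023 and 0.00123), and that of Itgb4 was 4.27 (SE 0.83) as deposited and 3.22 (SE 0.74) after scaling (limma adjusted p = 0.000863 and 0.00395). Krt5 (1.45 after scaling), the gene that was to direct the deletion, was positive, and its partner Krt14 (−1.37) was not called.

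Suprabasal genes were split, with 3 positive and 3 negative of 22, beside 23.2% and 6.05% of all tested genes. Their median changed sign with the scaling (0.64 as deposited, −0.56 scaled). Krt1, the main keratin of spinous cells, was at 723, 778, 1005 and 901 FPKM in WT versus 109, 655, 510.0 and 901 FPKM in cKO at 2 weeks. At 8 weeks it was at 31.4, 27.3 and 20.1 FPKM in WT versus 223, 320.0, 212 and 234 FPKM in cKO. Groups that overlapped at 2 weeks were thus apart at 8 weeks, and the interaction was 4.17 (SE 0.69) as deposited and 2.93 (SE 0.62) after scaling (limma adjusted p = 0.000319 and 0.00251). Krt77, another suprabasal keratin, was positive too (3.3 after scaling). Krtdap (−4.19), Dmkn (−3.15) and Hrnr (−3.06), secreted or granular proteins of the upper epidermis, were negative, and Krt10 (1.05), Lor (−0.16) and Ivl (−1.4) were not called.

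The late cornified envelope genes, which reinforce the outermost cells, had 15 of 17 negative and 0 positive, against 6.05% negative of all tested genes. Lce1g was at 36.4, 35.7, 55.5 and 42.7 FPKM in WT versus 312, 170.1, 296 and 201 FPKM in cKO at 2 weeks, and at 353, 105 and 109 FPKM and 219.7, 66.9, 248 and 52.3 FPKM at 8 weeks. The cKO libraries were all higher at 2 weeks, and the groups overlapped at 8 weeks (interaction −2.9 (SE 0.72) as deposited and −4.16 (SE 0.84) after scaling (limma adjusted p = 0.00332 and 0.00192)). With a trend on transcript length removed from every library, 3 of the 17 were negative, and Lce3c was no longer called as deposited (−1.30, adjusted p = 0.0614). Slurp1, a small secreted protein of differentiating keratinocytes, had the larger interaction of −4.27 (SE 0.74) as deposited and −5.53 (SE 0.83) after scaling (limma adjusted p = 0.000422 and 0.000272). It was at 28.7, 20.5, 36.1 and 31.6 FPKM in WT versus 234, 116, 214 and 278 FPKM in cKO at 2 weeks, and at 997, 302 and 263 and 225, 77.7, 359.7 and 80.8 FPKM at 8 weeks, when the groups overlapped as deposited. The protease inhibitor Csta moved likewise (−5.14 after scaling).

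Of 21 keratinocyte genes linked to hyperproliferation 6 were positive and 0 negative, a share near the 23.2% of all tested genes. Krt6b was at 72.4, 76.2, 78.3 and 71.8 FPKM in WT versus 26.2, 56.3, 36.4 and 93.2 FPKM in cKO at 2 weeks, and at 0.18, 1.13 and 1.61 and 18.9, 21.2, 59 and 132 FPKM at 8 weeks. It overlapped between genotypes at 2 weeks and lay above every WT library at 8 weeks (interaction 5.18 (SE 0.76) as deposited and 4.32 (SE 0.76) after scaling (limma adjusted p = 0.000135 and 0.000872)). The gap junction gene Gjb2 (4.73 after scaling) and Krt6a (3.61) were positive, and Krt16 (1.05) and Krt17 (0.42) were not called.

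Antimicrobial peptides and alarmins, released by stressed or infected epidermis, had 13 negative and 1 positive of 18, and 8 negative with the length trend removed. S100a8, a subunit of the calprotectin complex that neutrophils and inflamed keratinocytes carry, was at 10.4, 5.93, 4.57 and 5.87 FPKM in WT versus 164, 216, 118 and 234 FPKM in cKO at 2 weeks. At 8 weeks it was at 15.9, 10 and 57 FPKM in WT versus 43.3, 81, 69.1 and 113 FPKM in cKO. The genotypes were far apart at 2 weeks and overlapped at 8 weeks, and the interaction was −2.86 (SE 0.64) as deposited and −4.05 (SE 0.75) after scaling (limma adjusted p = 0.00188 and 0.00129). Removal of the length trend ended its call as deposited (−1.53, adjusted p = 0.105), as did a fit over all 22 libraries (−2.86, adjusted p = 0.074). Its partner S100a9 had −3.27 (SE 0.68) as deposited and −4.45 (SE 0.76) after scaling (limma adjusted p = 0.0012 and 0.000752).

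The beta-defensin Defb14 was at 1.22, 1.84, 0 and 1.08 FPKM in WT versus 40.5, 12.3, 30.8 and 26.5 FPKM in cKO at 2 weeks, and at 72.4, 11.3 and 15.6 and 40.5, 10.4, 32.1 and 16.6 FPKM at 8 weeks. Here the cKO libraries kept their level while WT came up to it, with an interaction of −3.9 (SE 0.81) as deposited and −4.93 (SE 0.91) after scaling (limma adjusted p = 0.0012 and 0.00122) and a scaled age change of 4.65 in WT and −0.28 in cKO. The siderophore binder Lcn2 (−3.93 after scaling), the protease inhibitor Slpi (−3.92) and Wfdc2 (−5.03), which is named by the size of its change and not by this list, were negative as well. S100a7a was the 1 positive member. It was at 17.1, 15.8, 24.4 and 19.4 FPKM in WT of 2 weeks, at most 0.776 FPKM in cKO of that age, and at 0.341, 0.31 and 0.137 FPKM in WT versus 2.09, 0.65, 1.45 and 1.68 FPKM in cKO at 8 weeks. The genotypes thus changed order as deposited, and overlapped at 8 weeks after scaling (interaction 4.76 (SE 0.31) as deposited and 4.17 (SE 0.31) after scaling (limma adjusted p = 1.75e-07 and 3.23e-07)).

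The IL-1 and IL-36 list had 3 negative and 2 positive of 17, beside 6.05% and 23.2% of all tested genes. Its median changed sign with the scaling (0.25 as deposited, −0.77 scaled). Il1f6 (IL-36α) was at 2.18, 2.94, 3.06 and 3.66 FPKM in WT versus 32.1, 19, 39.8 and 31.1 FPKM in cKO at 2 weeks and at 12.6, 2.28 and 6.49 and 14.4, 4.53, 21.5 and 5.3 FPKM at 8 weeks, apart at the first age and overlapping at the second (interaction −2.36 (SE 0.67) as deposited and −3.42 (SE 0.81) after scaling (limma adjusted p = 0.00725 and 0.00451)). Il1f9 (IL-36γ) had a scaled interaction of −3.17, and Il1r2, a decoy receptor for IL-1, of −2.82, while the IL-36 receptor Il1rl2 was positive (1.92), as was the IL-1 receptor Il1r1 (0.84). Il1b (−0.08) and Il1a (−1.04) were not called. Complement and acute phase genes had 7 negative and 3 positive of 22, led by the plasma carrier proteins Orm2 (−4.43 after scaling) and Orm1 (−4.05).

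In the pathway that SOCS3 restrains, the IL-6 and STAT3 list had 14 positive and 1 negative of 34, beside 23.2% and 6.05% of all tested genes, with a scaled median of 0.42. With the trend on transcript length removed, 9 were positive and 1 negative. Il6ra, the IL-6 receptor, was at 16.6, 14, 16.2 and 16.8 FPKM in WT versus 1.41, 18, 8.44 and 10.5 FPKM in cKO at 2 weeks. At 8 weeks the levels were 0.74, 0.353 and 1.12 FPKM in WT versus 3.06, 9.74, 9.84 and 10.6 FPKM in cKO, so that overlapping groups became separate (interaction 3.34 (SE 0.71) as deposited and 2.5 (SE 0.66) after scaling (limma adjusted p = 0.00141 and 0.00792)). Clcf1, a ligand of the IL-6 family, was at 11.3, 11.6, 8.51 and 10.3 FPKM in WT versus 1.2, 2.85, 3.3 and 2.13 FPKM in cKO at 2 weeks and at 0.299, 0.993 and 1.2 and 1.19, 4.21, 4.86 and 9.46 FPKM at 8 weeks, with an interaction of 3.32 (SE 0.54) as deposited and 2.5 (SE 0.51) after scaling (limma adjusted p = 0.000278 and 0.00214). Stat3 (1.19 after scaling) and Stat5a (1.11), the kinase Tyk2 (1.85) and the STAT3 targets Pim1 (2.44), Bcl3 (1.98), Myc (1.06) and Ccnd1 (1.77) were positive, and the ligand Il11 (−2.39) was negative. The shared receptor chain Il6st (0.20), the kinases Jak1 (0.32) and Jak2 (0.06), and the feedback genes Socs1 (0.46) and Cish (1.07) were not called.

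The list of IL-17, IL-20 and IL-22 genes had 3 of 11 members positive and 1 negative, near the 23.2% and 6.05% of all tested genes. The receptor Il17ra was positive (1.53 after scaling, adjusted p = 0.00668 in limma). Il22ra2, a soluble decoy that binds IL-22, was the negative one, at 3.41, 3.01, 2.91 and 2.44 FPKM in WT versus 16.4, 15.1, 15.6 and 16.1 FPKM in cKO at 2 weeks and at 2.62, 1.88 and 0.811 and 4.56, 3.33, 3.93 and 3.18 FPKM at 8 weeks. As deposited, the libraries labelled cKO lay above WT at both ages, by a smaller margin at 8 weeks. After scaling the difference was 2.21 at 2 weeks and 0.11 at 8 weeks, the latter not called (limma adjusted p = 0.767). The interaction of Il22ra2 was −1.27 (SE 0.31) as deposited and −2.11 (SE 0.32) after scaling (limma adjusted p = 0.00276 and 0.00034). Unlike most genes it changed in cKO, by −1.87 after scaling (limma adjusted p = 0.000847). Its age change in WT was 0.24 after scaling, not called (adjusted p = 0.406), and −0.56 as deposited, which was called (adjusted p = 0.0343). Il17a, Il17f and Il22 did not reach the level for testing.

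Chemokines had 3 positive and 3 negative of 23, beside 23.2% and 6.05% of all tested genes. Cxcl14, made by resting epithelium, was at 192, 184, 197 and 181 FPKM in WT versus 9.34, 33.8, 42.8 and 36.3 FPKM in cKO at 2 weeks, and at 13.3, 21.1 and 7.56 and 33.8, 87.9, 57.5 and 76 FPKM at 8 weeks. It changed order without overlap at either age (interaction 4.91 (SE 0.62) as deposited and 3.7 (SE 0.46) after scaling (limma adjusted p = 4.2e-05 and 4.94e-05)). The lymphatic chemokine Ccl21a took the opposite course, at 30.7, 32.7, 27.1 and 25.1 FPKM in WT versus 147, 57.2, 99.7 and 82 FPKM in cKO at 2 weeks and at 298, 175 and 203 and 132, 81, 109 and 115 FPKM at 8 weeks (interaction −2.65 (SE 0.40) as deposited and −3.91 (SE 0.54) after scaling (limma adjusted p = 0.000186 and 0.000132)). Of 26 interferon response genes 1, Stat2 (1.39 after scaling), was positive and 0 were negative.

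Markers of blood and immune cells were mostly negative where called. Macrophage genes had 7 negative and 0 positive of 21, with a scaled median of −1.78, and 1 negative with the length trend removed. The complement gene C1qa of tissue macrophages was at 47.9, 60, 56.2 and 48.4 FPKM in WT versus 74.7, 52.6, 68.2 and 54.2 FPKM in cKO at 2 weeks, and at 301, 132 and 127 and 61.3, 63.3, 80.9 and 27.7 FPKM at 8 weeks. The groups overlapped at 2 weeks and all WT libraries lay above those labelled cKO at 8 weeks (interaction −1.86 (SE 0.48) as deposited and −3.12 (SE 0.56) after scaling (limma adjusted p = 0.00406 and 0.000958)); the deposited call was lost with the length trend removed (−0.89, adjusted p = 0.0609). Ms4a7, a macrophage membrane protein, had a scaled interaction of −3.51 and the Langerhans cell lectin Cd207 of −2.28. Cd207 too lost its deposited call with the length trend removed (−0.56, adjusted p = 0.138). The T and NK cell list had 1 negative and 1 positive of 13, beside 6.05% and 23.2% of all tested genes. They were the T cell receptor part Cd3d (−3.2 after scaling) and the co-receptor Cd4 (0.56).

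B and plasma cell genes were negative in 3 of 4, and in 0 of 4 with the length trend removed. Cd79a, part of the B cell receptor, was below 1 FPKM in 12 libraries and at 2.61, 3.75 and 2.29 FPKM in WT of 8 weeks. Its interaction was −1.24 (SE 0.21) as deposited and −2.04 (SE 0.16) after scaling (limma adjusted p = 0.00035 and 5.65e-07), and with the length trend removed it was not called as deposited (−0.64, adjusted p = 0.0666). The eosinophil ribonuclease Ear5, of a family of close copies, was at 4.08, 7.3, 8.77 and 5.59 FPKM in WT versus 80.6, 83.5, 66.3 and 157 FPKM in cKO at 2 weeks and at 280.0, 177 and 116 and 208, 44.8, 254 and 64.2 FPKM at 8 weeks (interaction −4.36 (SE 0.71) as deposited and −5.58 (SE 0.78) after scaling (limma adjusted p = 0.0003 and 0.000139)). The α-globin gene Hba-a1, which shares reads with Hba-a2, was at 172, 169, 193 and 168 FPKM in WT of 2 weeks and at 9069.6, 1841 and 1331 FPKM in WT of 8 weeks. In the libraries labelled cKO it was at 2767, 1024, 2417 and 1132 FPKM at 2 weeks and 1829.6, 943, 1215 and 1532 FPKM at 8 weeks. The low values were those of WT at 2 weeks, and the interaction was −4.31 (SE 0.73) as deposited and −5.58 (SE 0.82) after scaling (limma adjusted p = 0.000367 and 0.000245). Summed over the 6 tested erythroid genes, of which 3 were negative and 1 positive, the level was 463 to 537 FPKM in WT and 2708 to 7442 FPKM in cKO at 2 weeks, and 3266 to 19015 FPKM in WT and 2579 to 5475 FPKM in cKO at 8 weeks. The part of blood left in the specimens in the other results was not tested.

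Mast cell genes included 2, Hdc and Mrgprb1, whose level in cKO itself changed with age. The list had 6 negative and 0 positive of 11, and 6 negative also with the length trend removed. Cma1, a chymase of connective tissue mast cells, was at 135, 132, 137 and 141 FPKM in WT versus 366, 133, 177 and 155 FPKM in cKO at 2 weeks, and at 289, 178 and 274 and 95, 34.8, 82.2 and 19.3 FPKM at 8 weeks. Overlapping groups at 2 weeks became separate at 8 weeks, with WT above, and the interaction was −2.79 (SE 0.63) as deposited and −4.05 (SE 0.79) after scaling (limma adjusted p = 0.00188 and 0.0017). The scaled change with age was 2.01 in WT (adjusted p = 0.0088) and −2.04 in cKO, which was not called (adjusted p = 0.0998). Mcpt4, another chymase, gave −3.8 after scaling. The summed level of the 11 genes was 483 to 518 FPKM in WT and 588 to 1157 FPKM in cKO at 2 weeks, and 718 to 896 FPKM in WT and 87.2 to 395 FPKM in cKO at 8 weeks.

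Hdc, the enzyme that makes histamine, was at 8.04, 9.39, 8.85 and 10.9 FPKM in WT versus 17.3, 14.3, 15.6 and 14.8 FPKM in cKO at 2 weeks, and at 2.75, 3.24 and 2.5 and 1.13, 1.57, 1.52 and 1.24 FPKM at 8 weeks. Every cKO library was above WT at 2 weeks and below WT at 8 weeks (interaction −1.38 (SE 0.25) as deposited and −2.35 (SE 0.27) after scaling (limma adjusted p = 0.000543 and 2.12e-05)). Here the age change in cKO was called (−2.8 after scaling, adjusted p = 1.48e-06). Hdc also fell in WT, by −1.42 as deposited (limma adjusted p = 1.23e-05) and by −0.45 after scaling, which was not called (adjusted p = 0.0617). Mrgprb1, a receptor of mast cells, also fell with age in cKO (−1.58, adjusted p = 0.0146) with an interaction of −1.62 (SE 0.36) as deposited and −2.58 (SE 0.42) after scaling (limma adjusted p = 0.00183 and 0.00055). Hdc and Mrgprb1 were chosen after their values were seen. The growth factor receptor Kit (−0.48) and the IgE receptor chain Fcer1a (−1.51) were not called.

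In the dermis, the list of fibroblast and collagen genes had 16 positive and 0 negative of 26, with a scaled median of 1.87, and 16 positive also with the length trend removed. Col1a1, the main dermal collagen, was at 3932, 4435, 3614 and 3544 FPKM in WT versus 223, 648, 655 and 483 FPKM in cKO at 2 weeks, and at 27.8, 121 and 408 and 502, 1519, 527 and 722 FPKM at 8 weeks. As deposited, WT was above cKO at 2 weeks and below it at 8 weeks in every library (interaction 5.76 (SE 0.90) as deposited and 4.5 (SE 0.96) after scaling (limma adjusted p = 0.000215 and 0.00271)). After scaling the groups overlapped at 8 weeks. Col6a2 (3.5 after scaling), the elastic fibre protein Eln (2.5) and fibronectin, Fn1 (2.08), were positive, whereas the small proteoglycans Dcn (−1.54) and Lum (−1.07) and the fibroblast receptor Pdgfra (−0.12) were not called. The collagenase Mmp14 was positive (2.69) and the inhibitor Timp4 negative (−3.69).

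Vessel, muscle and nerve genes added smaller groups. Endothelial genes had 10 positive and 0 negative of 20. Erg, a transcription factor of endothelium, was at 12.4, 13.2, 12 and 10.8 FPKM in WT versus 3.24, 9.08, 3.64 and 4.65 FPKM in cKO at 2 weeks and at 0.122, 0.22 and 1.02 and 2.76, 8.34, 2.78 and 11.7 FPKM at 8 weeks, with an interaction of 3.37 (SE 0.56) as deposited and 2.64 (SE 0.55) after scaling (limma adjusted p = 0.000325 and 0.00231). Of the endothelial adhesion genes, Cdh5 was positive (2.28 after scaling) and Pecam1 was not called (0.77). Smooth muscle and pericyte genes had 7 positive and 0 negative of 10, with Smtn at 3.08, and nerve and Schwann cell genes 6 positive and 1 negative of 15. Beside 6.05% negative and 23.2% positive of all tested genes, skeletal muscle genes had 3 negative and 0 positive of 30. Among them was myoglobin, Mb, at 4.32, 4.91, 2.63 and 3.58 FPKM in WT versus 31.1, 26.2, 45.3 and 68.1 FPKM in cKO at 2 weeks and at 289, 164 and 83.1 and 205, 180.2, 104 and 79.8 FPKM at 8 weeks. It was higher in every library at 8 weeks than in any of its genotype at 2 weeks, more so in WT (interaction −3.35 (SE 0.58) as deposited and −4.54 (SE 0.57) after scaling (limma adjusted p = 0.000444 and 5.8e-05)). The summed muscle level was 1279 to 1895 FPKM in WT and 3072 to 5753 FPKM in cKO at 2 weeks, and 720.3 to 2027 FPKM in WT and 1151 to 4681 FPKM in cKO at 8 weeks, so the amount of muscle RNA differed between libraries, and its part in the other results was not tested.

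Cartilage genes were split, with 5 positive and 2 negative of 15, beside 23.2% and 6.05% of all tested genes. Col2a1, the collagen of cartilage matrix, was at 141, 212, 179 and 119 FPKM in WT versus 9.47, 31.1, 52.4 and 13.4 FPKM in cKO at 2 weeks and at 0.531, 2.17 and 2.15 and 3.5, 17.4, 12.1 and 21.1 FPKM at 8 weeks (interaction 5.15 (SE 0.76) as deposited and 4.19 (SE 0.72) after scaling (limma adjusted p = 0.000151 and 0.000767)). Ucma, a small secreted protein of chondrocytes, was at 2.96, 4.27, 2.63 and 2.58 FPKM in WT versus 20.6, 16, 25.5 and 22.7 FPKM in cKO at 2 weeks and at 63.3, 49.3 and 34.3 and 23.7, 28.3, 11.7 and 22.7 FPKM at 8 weeks (interaction −3.6 (SE 0.40) as deposited and −4.76 (SE 0.40) after scaling (limma adjusted p = 1.72e-05 and 8.89e-07)). These 2 markers of the same tissue thus moved in opposite directions, each without overlap at either age as deposited. After scaling the groups of Col2a1 overlapped at 8 weeks. Their longest annotated transcripts are 5104 and 847 bases long.

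**Figure D3:**
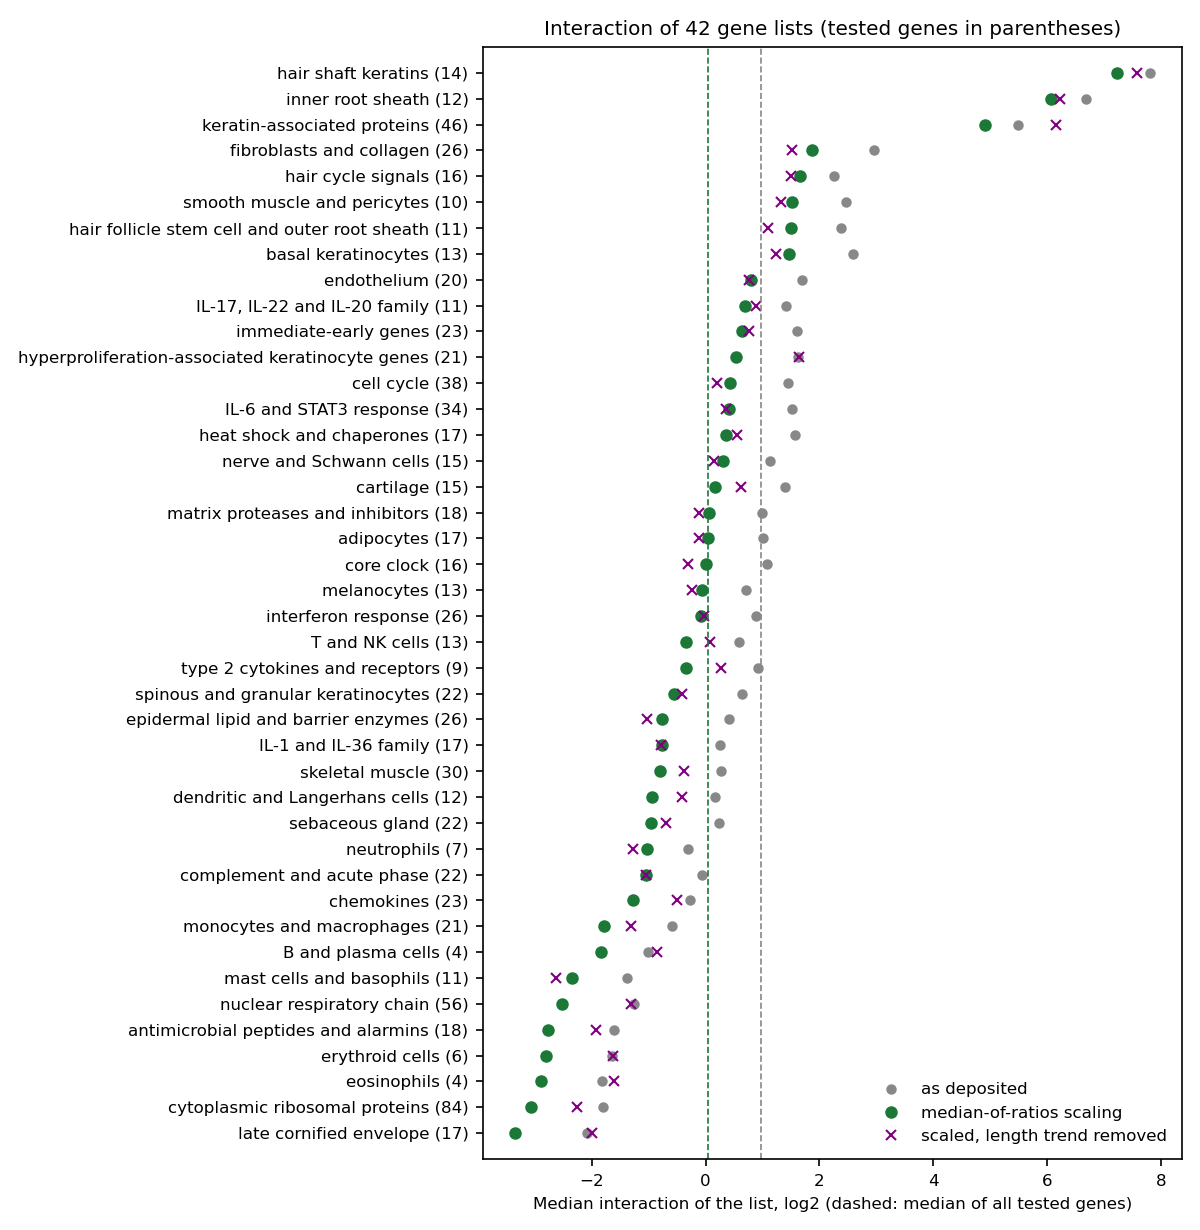
Median interaction (log2) of the tested members of 42 gene lists, as deposited, after median-of-ratios scaling, and after scaling with a trend on transcript length removed; dashed lines mark the median of all tested genes. Hair lists lie at the top (7.22 for hair shaft keratins after scaling) and late cornified envelope genes at the bottom (−3.35).

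Among the remaining lists, cell cycle genes had 10 positive and 1 negative of 38, near the 23.2% of all tested genes, among them the mitotic kinases Plk1 (2.07 after scaling) and Aurkb (1.86), while Mki67 (0.51) and Top2a (0.81) were not called. Sebaceous gland genes had 5 negative and 2 positive of 22, with the wax synthases Awat1 (−3.31) and Awat2 (−2.85) negative. Adipocyte genes had 1 positive and 2 negative of 17, and melanocyte genes 1 and 1 of 13. Neutrophil genes had 3 negative of 7, of which 2 were S100a8 and S100a9. Heat shock genes had 3 positive and 1 negative of 17, immediate-early genes 4 positive of 23, clock genes 1 positive of 16, and epidermal lipid enzymes 1 negative of 26. The shares of all tested genes were 23.2% positive and 6.05% negative.

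Ribosomal protein genes formed the largest negative group. They had 70 negative and 0 positive of 84, with a scaled median of −3.06, and after scaling alone 80 were negative. Rpl38, a protein of the large subunit, was at 1503, 1498, 1476 and 1318 FPKM in WT versus 5619, 1849, 3676 and 2843 FPKM in cKO at 2 weeks, and at 35836, 9229 and 7542 and 6217, 2833, 4342 and 3180.0 FPKM at 8 weeks. The cKO libraries were above WT at 2 weeks and below it at 8 weeks, with WT replicate 1 of 8 weeks several times above the other libraries (interaction −2.94 (SE 0.67) as deposited and −4.21 (SE 0.84) after scaling (limma adjusted p = 0.00209 and 0.0019)). Rpl13a gave −2.92 (SE 0.55) as deposited and −4.19 (SE 0.72) after scaling (limma adjusted p = 0.0007 and 0.000746). Nuclear genes of the respiratory chain had 31 negative and 2 positive of 56, the latter being Cyc1 (1.23 after scaling) and Atp5a1 (1.04), with Ndufa2 (−4.06) and the muscle isoform Cox6a2 (−4.05) changed most. The ribosomal genes are those whose share of all FPKM set the WT libraries of 8 weeks apart.

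The promoter of Rpl38 is shown as an example of the group. It lies on the plus strand of GRCm38.p6 at chr11:114668330-114668629 (RefSeq), and capitals mark CCGGAAG, the core recognised by ETS family factors.
Rpl38: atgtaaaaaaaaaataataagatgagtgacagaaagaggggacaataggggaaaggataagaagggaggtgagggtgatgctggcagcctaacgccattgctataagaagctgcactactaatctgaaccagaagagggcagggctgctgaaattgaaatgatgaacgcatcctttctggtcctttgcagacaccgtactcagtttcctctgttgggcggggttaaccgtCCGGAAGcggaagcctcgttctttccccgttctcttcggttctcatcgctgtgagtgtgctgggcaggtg
The match begins 20 bases before the start. CCGGAAG was found on either strand in 25 of 62 ribosomal protein promoters (40.3%), 13 of 43 of the respiratory chain (30.2%) and 9.93% of all promoters in the table, and in 0 of 36 of the keratin-associated proteins. TATAAA was found in 7 of 62 ribosomal protein promoters (11.3%).

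The interaction varied with transcript length. Lengths were known for 13776 tested genes (99.1%), as the longest annotated transcript of each. The median length was 3878 bases for positive genes, 1231 bases for negative genes and 3220 bases for all. Genes were put in order of length and divided into 5 groups of near-equal size. Of the 2762 shortest (65 to 1791 bases) 8.58% were positive and 19.4% negative, and of the 2755 longest (5087 bases and more) 29.2% and 1.05%. The scaled median change with age in WT was 1.0 in the shortest and −0.39 in the longest group, while in cKO it was 0.07 and −0.06. Across genes, which are not independent replicates and share the same 15 libraries, log2 length and the scaled interaction correlated at r = 0.25 (n = 13776). With the length trend removed from each library the positive count was 2844 and the negative count 519. Of the negative lists, 52 of 84 ribosomal protein genes and 12 of 56 respiratory chain genes were then still called negative, and 1 and 2 were positive. Negative members fell from 7 to 4 in the complement and acute phase list, from 5 to 3 in the sebaceous gland list, and from 3 to 1 in the chemokine and in the skeletal muscle list. All 46 keratin-associated protein genes, with a median length of 867.5 bases, were called positive in that fit.

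**Figure D4:**
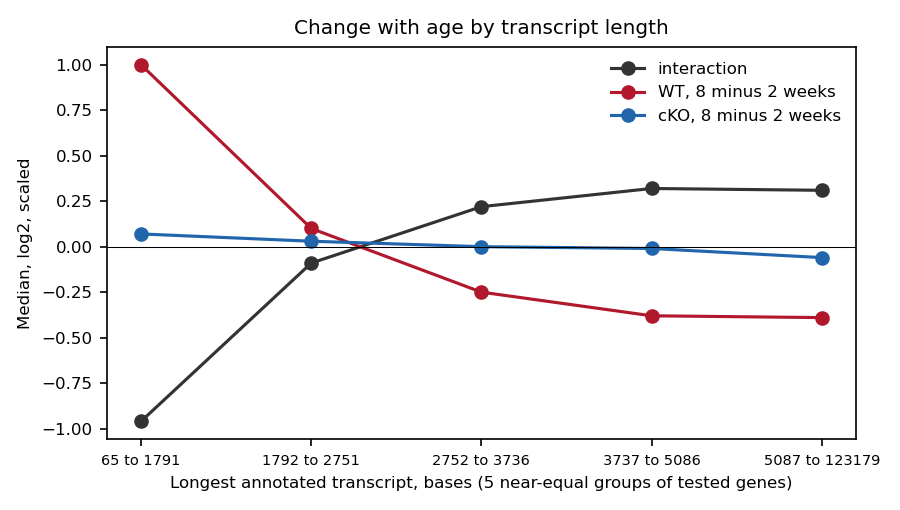
Median scaled interaction, and median change from 2 to 8 weeks in WT and in Socs3 cKO, for 5 near-equal groups of the tested genes ordered by the length of their longest annotated transcript in bases. The WT line falls from 1.0 to −0.39 with length, and the cKO line stays between 0.07 and −0.06.

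Sorting genes by their scaled difference at each age showed what the interaction consisted of. The difference crossed 0, with a size of at least 1 at both ages, from lower to higher in cKO for 296 genes and from higher to lower for 427, of which 284 and 376 were called. It appeared at 8 weeks, with a size of under 0.5 at 2 weeks and of at least 1 at 8 weeks, as higher in cKO for 371 genes (265 called) and as lower for 565 (167 called). It faded, from at least 1 at 2 weeks to under 0.5 at 8 weeks, for 5.96% of tested genes lower at 2 weeks (672 genes called) and for 3.57% higher at 2 weeks (43 called). The classes use the same differences as the interaction, so these counts describe it and do not test it. By the libraries themselves, 474 genes (3.41%) had every cKO library below WT at 2 weeks and above WT at 8 weeks under both scalings, and 58 (0.417%) the reverse.

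Among genes of the crossing class, which is set by scaled estimates alone, were Krt71, Krtap8-1, Hba-a1, Ear5 and Slurp1, described above. For Krt71 and Slurp1 the 8 week difference was called under both scalings. It was not called as deposited for Ear5 (−0.68, limma adjusted p = 0.259) and Hba-a1 (−1.07, adjusted p = 0.0902), nor after scaling for Krtap8-1 (2.9, adjusted p = 0.102). Among genes that appeared, Zfp488, a zinc finger factor known from myelinating glia, was at 6.92, 6.86, 6.55 and 7.16 FPKM in WT versus 5.65, 8.67, 4.42 and 4.59 FPKM in cKO at 2 weeks. At 8 weeks it was at 130.0, 202 and 89.1 FPKM in WT versus 3.7, 8.08, 3.54 and 6.91 FPKM in cKO. The 3 WT libraries of 8 weeks lay far above the other 12, whose genotypes and ages overlapped (interaction −4.17 (SE 0.43) as deposited and −5.38 (SE 0.30) after scaling (limma adjusted p = 9.17e-06 and 1.13e-08)). Grk1, the kinase that shuts off rhodopsin in photoreceptors, showed the same arrangement, at 16.2, 24.1 and 9.7 FPKM in WT of 8 weeks and at most 1.06 FPKM elsewhere (interaction −3.18 (SE 0.33) as deposited and −4.16 (SE 0.20) after scaling (limma adjusted p = 9.37e-06 and 2.58e-09)). These are the libraries with 50.4% to 72.9% of receptor genes above 0, and the part of that in the values of Zfp488 and Grk1 was not tested.

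Calr and Rab7 appeared in the other direction. Calr, a chaperone of the endoplasmic reticulum, was at 240.3, 256, 241 and 199.6 FPKM in WT versus 90.3, 169, 175 and 216 FPKM in cKO at 2 weeks, and at 1.4, 9.78 and 16.6 and 127, 180.2, 214 and 211 FPKM at 8 weeks (interaction 5.14 (SE 0.67) as deposited and 3.99 (SE 0.75) after scaling (limma adjusted p = 5.79e-05 and 0.00133)). Rab7, a GTPase of late endosomes, was at 207, 204, 206 and 194 FPKM in WT versus 212, 236, 195 and 256 FPKM in cKO at 2 weeks and at 0.728, 8.58 and 14.7 and 162, 182, 181 and 180.4 FPKM at 8 weeks (interaction 4.66 (SE 0.67) as deposited and 3.56 (SE 0.81) after scaling (limma adjusted p = 0.000118 and 0.00374)). Both are made in nearly all cells, and their lowest values were those of the 3 WT libraries of 8 weeks.

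A smaller set of genes was called both in the interaction and in the age change of cKO. The change from 2 to 8 weeks in cKO was called under both scalings for 92 genes (0.661% of those tested), 33 higher and 59 lower at 8 weeks, and 32 of these were also called in the interaction, 13 positive and 19 negative. This class was chosen after the values were seen. All 19 negative ones fell with age in cKO, and 10 of the 13 positive ones rose. The other positive ones, Igf2bp3, Cpa4 and Myh8, fell in cKO and fell further in WT (scaled −0.95 and −1.82, −1.43 and −2.66, −2.17 and −4.25). The number was 17 without cKO replicate 3 of 2 weeks, 18 without cKO replicate 4 of 8 weeks and 60 without cKO replicate 1 of 8 weeks, so the number depends on single libraries. It was also 49 with the replicate number as a block, 210 with a block within cKO alone, where same-numbered libraries of 2 and 8 weeks deviated together (r = 0.111 to 0.744), and 2212 with array quality weights.

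Secreted regulators of connective tissue stood among those that rose in cKO. Igfbp4, which binds insulin-like growth factors, was at 202, 221, 193 and 199.8 FPKM in WT versus 19.1, 49.1, 69.1 and 55.4 FPKM in cKO at 2 weeks, and at 110.5, 135 and 46.1 and 86.8, 265, 221 and 227 FPKM at 8 weeks. It was lower in every cKO library at 2 weeks and overlapped with WT at 8 weeks (interaction 3.25 (SE 0.62) as deposited and 1.99 (SE 0.47) after scaling (limma adjusted p = 0.000781 and 0.00439)), with a scaled age change of 1.97 in cKO (adjusted p = 0.00643) and −0.02 in WT. As deposited the age change of Igfbp4 was 2.05 in cKO and −1.2 in WT (limma adjusted p = 0.0298 and 0.0276). The BMP antagonist Grem1 was at 0.468, 0.589, 0.415 and 0.455 FPKM in cKO at 2 weeks and 4.24, 2.34, 2.99 and 10.2 FPKM at 8 weeks, against at most 0.761 FPKM in any WT library. Its interaction was 2.28 (SE 0.39) as deposited and 1.92 (SE 0.38) after scaling (limma adjusted p = 0.000429 and 0.00186). The Wnt modulator Sfrp2 had a scaled interaction of 1.97 and the secreted carboxypeptidase homologue Cpxm1 of 2.05.

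Complement factor B and a class I gene rose too. Cfb was at 5.59, 10.3, 11.6 and 9.67 FPKM in cKO at 2 weeks and 28.9, 43, 34.2 and 31.4 FPKM at 8 weeks, beside 8.28, 8.49, 8.07 and 6.37 FPKM and 6.22, 9.69 and 6.99 FPKM in WT. All cKO libraries of 8 weeks lay above all other libraries. The age change of Cfb in WT was −0.04 as deposited and not called. After scaling it was 1.03 in WT (limma adjusted p = 0.00058) and 1.72 in cKO. Its scaled interaction of 0.69 was close to the threshold (limma adjusted p = 0.0497) and was lost in 11 of 15 fits that left out 1 library each and with upper-quartile scaling (0.75, adjusted p = 0.059). H2-Q9, one of several similar class I genes, was at 3.16, 8.45, 6.12 and 7.38 FPKM in cKO at 2 weeks and 13.6, 21.2, 21.6 and 20.7 FPKM at 8 weeks, with an interaction of 2.15 (SE 0.42) as deposited and 1.08 (SE 0.28) after scaling (limma adjusted p = 0.000859 and 0.0074).

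Genes that fell in cKO included products of upper epidermis and of mast cells. Hrnr, a granular layer protein, was at 28.1, 19.8, 36 and 30.3 FPKM in WT versus 262, 293, 313 and 282 FPKM in cKO at 2 weeks, and at 38.4, 18.5 and 11.3 and 78.4, 29.6, 125 and 37.6 FPKM at 8 weeks. The genotypes were far apart at 2 weeks and overlapped at 8 weeks (interaction −1.84 (SE 0.60) as deposited and −3.06 (SE 0.65) after scaling (limma adjusted p = 0.0157 and 0.00259)), and its deposited call was lost without WT replicate 1 of 8 weeks (−1.39, adjusted p = 0.0538). Lipk, a lipase of the upper epidermis, had −1.54 (SE 0.56) as deposited and −2.54 (SE 0.63) after scaling (limma adjusted p = 0.0256 and 0.00611). Without WT replicate 1 or cKO replicate 2 or 4 of 8 weeks its deposited value was −1.42, −1.22 or −1.27 and not called (adjusted p = 0.0612, 0.0523 and 0.0558).

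Clec12b, an inhibitory lectin receptor, was at 2.84, 2.81, 2.17 and 2.83 FPKM in WT versus 8.91, 4.04, 8.23 and 5.24 FPKM in cKO at 2 weeks, and at 3.29, 3.28 and 3.18 and 0.703, 0.53, 1.08 and 0.239 FPKM at 8 weeks. It was above WT in every cKO library at 2 weeks and below WT in every one at 8 weeks (interaction −2.4 (SE 0.32) as deposited and −3.29 (SE 0.39) after scaling (limma adjusted p = 7.23e-05 and 3.63e-05)). Ptgds, a prostaglandin D2 synthase, turned over in the same way, from 36.8, 27, 32.5 and 20.8 FPKM in cKO at 2 weeks to 11.4, 13.9, 11.9 and 12.9 FPKM at 8 weeks (interaction −1.53 (SE 0.30) as deposited and −2.75 (SE 0.34) after scaling (limma adjusted p = 0.000877 and 5.14e-05)). Tsc22d3, a glucocorticoid-induced gene known as GILZ, was at 66.6, 69.6, 58.2 and 62.3 FPKM in WT versus 177, 179.7, 151 and 135 FPKM in cKO at 2 weeks and at 68.8, 75.8 and 20.2 and 33.8, 68.7, 34 and 48.9 FPKM at 8 weeks (interaction −1.4 (SE 0.51) as deposited and −2.64 (SE 0.39) after scaling (limma adjusted p = 0.0267 and 0.000237)). Its deposited call was lost without WT replicate 1 or 2 or cKO replicate 3 of 8 weeks (−1.14, −1.07 and −1.27, adjusted p = 0.0773, 0.0782 and 0.0511). Hamp2, a hepcidin gene, had a scaled interaction of −3.11 and lost its deposited call with the length trend removed (−1.27, adjusted p = 0.094).

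**Figure D5:**
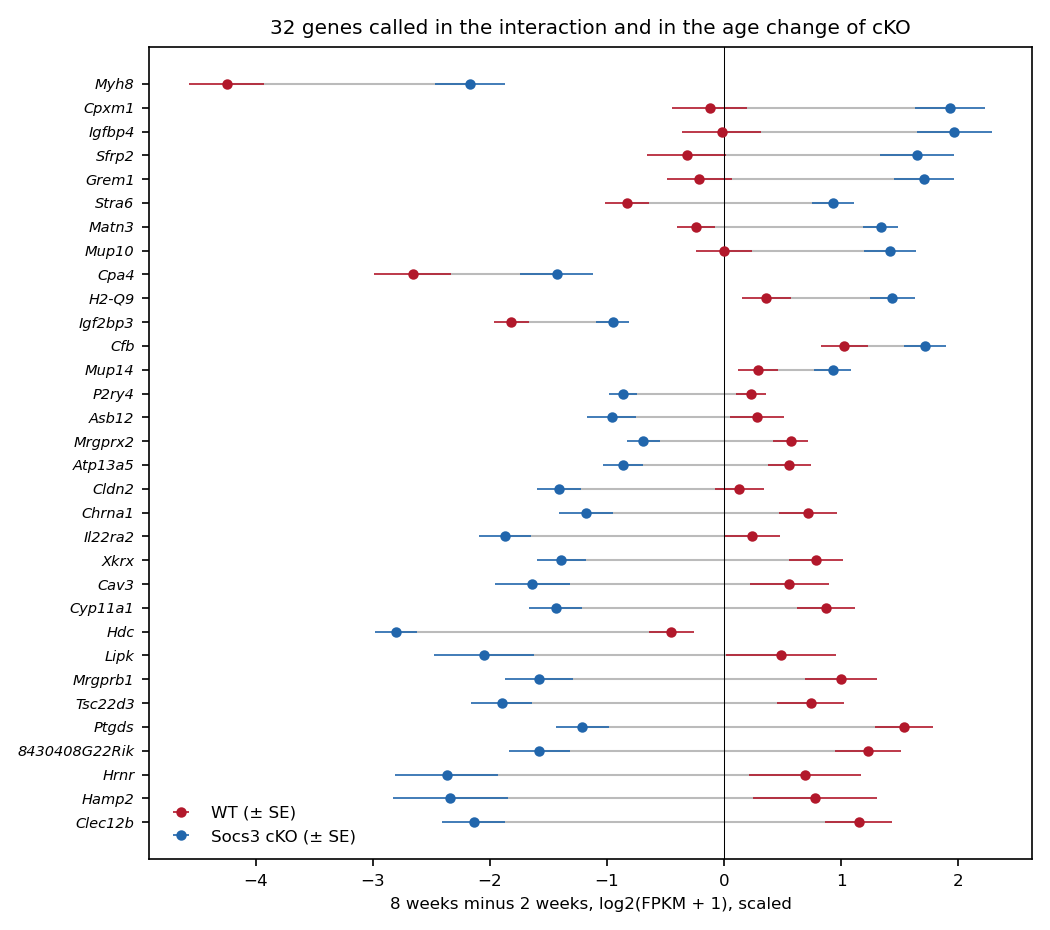
Change from 2 to 8 weeks (log2(FPKM + 1) after scaling, ± SE) in WT and in Socs3 cKO for the 32 genes called in both the interaction and the cKO age change, joined by a grey line whose length is the interaction. In 19 of them the cKO point lies left of the WT point, and in 13 to its right.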

How the data were processed

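RNA was sequenced from ear specimens; per the labels' protocols, total RNA was turned into libraries by TruSeq RNA v2, a kit that keeps no strand, and read as single ends of 50 bases. Per the submitters' processing notes, the tools were TopHat2 2.1.0 and Cufflinks and the build was mm9. Which Cufflinks version and annotation were used, and whether values were filtered, is not given in the sources used here. The authors deposited 1 FPKM value per gene symbol and library for 21110 genes. FPKM values are not counts, so depth in reads is unknown, no count model was used and low values carry no interval. The FPKM of a library summed to between 406190 and 970785, a total that is not a depth.

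Values were transformed to log2(FPKM + 1), which understates the change of weakly expressed genes, as deposited and after median-of-ratios scaling over 15038 genes above 0 in all 15 libraries. Genes that reached 1 FPKM in 3 or more libraries were fitted with limma 3.58.1 in R 4.3.3 (4 groups, empirical Bayes with an intensity trend), and p-values were adjusted by Benjamini-Hochberg over all 13908 tested genes. Gene lists are described by counts and medians, with no test. Transcript lengths came from a reference of another build and were matched by symbol. The scripts were tested on simulated data. Tables and figures used Python 3.11.15, pandas 2.3.3, numpy 2.4.6 and matplotlib 3.10.9.

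The contrast, the lists and the genes described were chosen with earlier results of these data known. The rule for named genes takes Socs3, the 12 largest positive and 12 largest negative interactions called under both scalings with a group mean of at least 10 FPKM (at most 3 per symbol stem, without small RNA genes, unnamed models and receptors of the nose), the 2 largest of each list, and the 4 largest of each class of crossing, appearing and fading differences. Not all of them are described, and some results are not reported here. Other list members named as examples, and the genes whose level changed with age in cKO, were chosen after their values were seen.

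Replicate numbers recur across groups, but no label says what they mark. Deviations from the group means of same-numbered libraries correlated over 0.1 in 8 of 21 pairs, and in every pair only between the cKO libraries of 2 and 8 weeks (r = 0.111 to 0.744). No 2 libraries held identical values (0 pairs), and over genes, r between replicates was 0.872 to 0.977.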

Additional observations from a re-analysis of the deposited data

Results flagged for a closer look

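The interaction itself is a difference of effects between the ages, and it passed the test for 3226 positive and 842 negative genes under both scalings and for Socs3 as deposited (2.47, limma adjusted p = 0.00726).

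Single libraries lay far from the rest of their group for 14 of 234 groups of 4 libraries of the genes examined, where about 1 in 20 would be so by chance. The WT group of 8 weeks, with 3 libraries, was not screened, so these counts say nothing about its spread. In the cKO libraries of 8 weeks the highest value was 4.28 FPKM for Padi3 (others up to 0.786), 10.5 FPKM for Vsig8 (up to 1.38), 22.8 FPKM for Krt75 (up to 6.88), 0.808 FPKM for Cd79a (up to 0.321) and 414 FPKM for Ndufa2 (up to 238). In the same group the lowest value was 3.06 FPKM for Il6ra (others from 9.74), 162 FPKM for Rab7 (from 180.2) and 13.6 FPKM for H2-Q9 (from 20.7). In the cKO libraries of 2 weeks the lowest value was 1.68 FPKM for Dlx3 (others from 5.33) and 28.9 FPKM for Col6a2 (from 253). In WT at 2 weeks, where replicates lay close together, the lowest value was 9.71 FPKM for Socs3 (others from 10.2), 1318 FPKM for Rpl38 (from 1476) and 2.17 FPKM for Clec12b (from 2.81), and the highest was 193 FPKM for Hba-a1 (others up to 172).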

How the results depend on the processing

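Socs3 and the 77 other genes recomputed kept their direction under every setting, and 143 of the 154 results of those 77, at 2 scalings each, kept their call. Of 43 list medians, 10 changed sign with median-of-ratios scaling and 1 with the length trend removed. As deposited, positive genes numbered 3093 with upper-quartile and 3226 with median-of-ratios scaling, and 6603 to 8319 when each library was left out in turn. Negative genes numbered 2942 and 2920 with those scalings, 2414 without a filter, 1648 with array weights, 1330 when each group lost its lowest-median library, 519 with the length trend removed, and 527 to 1239 with each library left out. After scaling, positive genes numbered 4911 with array weights (2351 to 3645 with each library left out), and negative ones 5234 without a filter and 4568 with array weights (2171 to 3436). Under both scalings positive genes numbered 4898 with array weights (2351 to 3645), and negative ones 2349 without a filter, 1647 with array weights, 1330 without the lowest-median libraries and 519 with the length trend removed (527 to 1239). Socs3 after scaling was not called without a filter (1.63, adjusted p = 0.0578) and ranged from 1.22 to 2.01 with libraries left out, against 1.98 to 2.86 as deposited.

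With the replicate number as a block the counts were 7733 and 906 as deposited and 3420 and 3175 after scaling, and with a block within cKO only, added after the data were seen, 8373 and 1032, and 4277 and 3873. Neither block changed a call of Socs3. The genes called also in the cKO age change numbered 49 with the block, 210 with the block within cKO, 2212 with array weights, 52 with all 22 libraries, 19 at 5 FPKM, 62 without the lowest-median libraries and 17 to 60 with each library left out. The cause of these shifts was not tested. The size of the WT group of 8 weeks, 3 libraries, and unknown depth limit the precision of single genes.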
